A study of Drosophila melanogaster with 48 samples.

Results

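The insulin pathway of the abdominal fat body was described through 9 genes, from the receptor to a target of foxo: InR, chico, Lnk, step, Pi3K21B, Pi3K92E, Akt, foxo and Thor. They were chosen by FlyBase symbol and matched to the gene rows of the deposited tables, where all 9 of 9 were found among 14205 rows and all 9 passed the filter on low counts. The choice of symbols used no measured value, but it was made with earlier results of these data known. Flies were mated females of the w1118 strain (iso31), about 8 days old, kept at 25 °C under 12 h of light and 12 h of dark. From about 3 days of age they were fed for 5 days on a restricted diet of 5% sucrose/yeast or on a control diet of 15% sucrose/yeast. Abdominal fat body with its oenocytes and epidermis, pooled from about 10 flies per library, was dissected every 2 h, and other abdominal organs such as intestine, ovaries and Malpighian tubules were cut away. Each diet had 2 libraries at each of 12 zeitgeber times (ZT, hours after lights on), which gave 24 restricted and 24 control libraries. No mutant or driver line was used, and all flies shared this strain, sex and light cycle.

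Insulin signalling couples feeding to growth, storage and stress resistance, and in flies the fat body is among its main target tissues. Insulin-like peptides bind the receptor InR, and the adaptors chico and Lnk link the active receptor to phosphoinositide kinase, whose regulatory subunit is Pi3K21B and whose catalytic subunit is Pi3K92E. The lipid product brings Akt to the membrane, where it is activated, and Akt phosphorylates foxo and holds it in the cytoplasm. When signalling is low, foxo enters the nucleus and activates genes such as Thor, which encodes a repressor of translation initiation, and InR itself. The data are transcript levels, and neither phosphorylation nor the location of foxo was measured.

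Libraries held 6111739 to 28757061 estimated counts on the restricted diet and 5815484 to 33485917 on the control diet. The median share of ribosomal RNA was 1.11% on the restricted diet and 0.375% on the control diet, and restricted ZT 2 replicate 1 had 53.8%. Of 13 fat body markers 11 were detected in every library, among them apolpp, FASN1, Lsd-1, AkhR and the yolk proteins, as was the oenocyte marker Cyp4g1. The other fat body markers, the larval genes Fbp1 and Lsp1gamma, were at 0 TPM in 15 and 24 libraries and did not pass the filter on low counts. Transcripts of organs that the dissection had removed were present as well. The ovary score of a library is the mean log2 CPM (counts scaled to a common library size) of 24 ovary markers. It ranged from -1.004 to 5.73 with a median of 2.87 on the restricted diet, and from 1.91 to 7.35 with a median of 4.78 on the control diet. Among libraries numbered replicate 1 it averaged 4.07 ± 1.65 on the restricted diet and 5.07 ± 1.46 on the control diet (SD, n = 12 each). Among those numbered replicate 2 it averaged 1.10 ± 1.61 on the restricted diet and 4.36 ± 1.25 on the control diet (SD, n = 12 each). The summed TPM (transcript abundance, adjusted for length and library size) of the ovary markers ranged from 15.5 to 7063 (median 705) on the restricted diet and from 256 to 15774 (median 2045) on the control diet. No ovary marker was at 0 in all libraries, and 13 of 24 were lower on the restricted diet (edgeR adjusted p under 0.05) with none higher. Of all genes tested 15.4% were lower. Within replicate 1 none of the 24 passed, where 0.0199% of all genes did. Within replicate 2 18 of 24 were lower, as were 21.9% of all genes. The gut score is the mean log2 CPM of 27 gut markers. It ranged from -1.60 to 6.06 on the restricted diet and from -1.73 to 7.25 on the control diet. The summed TPM of the gut markers ranged from 10.2 to 17072 (median 96.7) on the restricted diet and from 15.2 to 17714 (median 52.8) on the control diet. Because diet and ovary score moved together, the diet change of each member over all times is given within each replicate number and with the scores in the fit.

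The 9 members spanned a wide range of levels. Thor, which encodes the translation repressor 4E-BP, was far above the others, with 710 ± 191 TPM over all libraries (SD, n = 48), above 98% of the genes tested. Akt (26.7 ± 6.77 TPM) and foxo (24.5 ± 5.16 TPM) came next. They were followed by chico (17.3 ± 4.52 TPM), step (17.0 ± 9.61 TPM), Lnk (13.8 ± 2.35 TPM), Pi3K92E (13.7 ± 4.04 TPM) and Pi3K21B (10.9 ± 6.31 TPM). Akt and foxo were within 1 SD of each other, foxo was above chico by more than the SD of either, and from chico down to Pi3K21B each neighbour in this order lay within the larger SD of its pair. InR was lowest with 1.26 ± 0.54 TPM, above 15.2% of the genes tested, and rested on 54 to 730 estimated counts per library. The other 8 members had between 162 and 12618 estimated counts in every library.

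**Figure D1:**
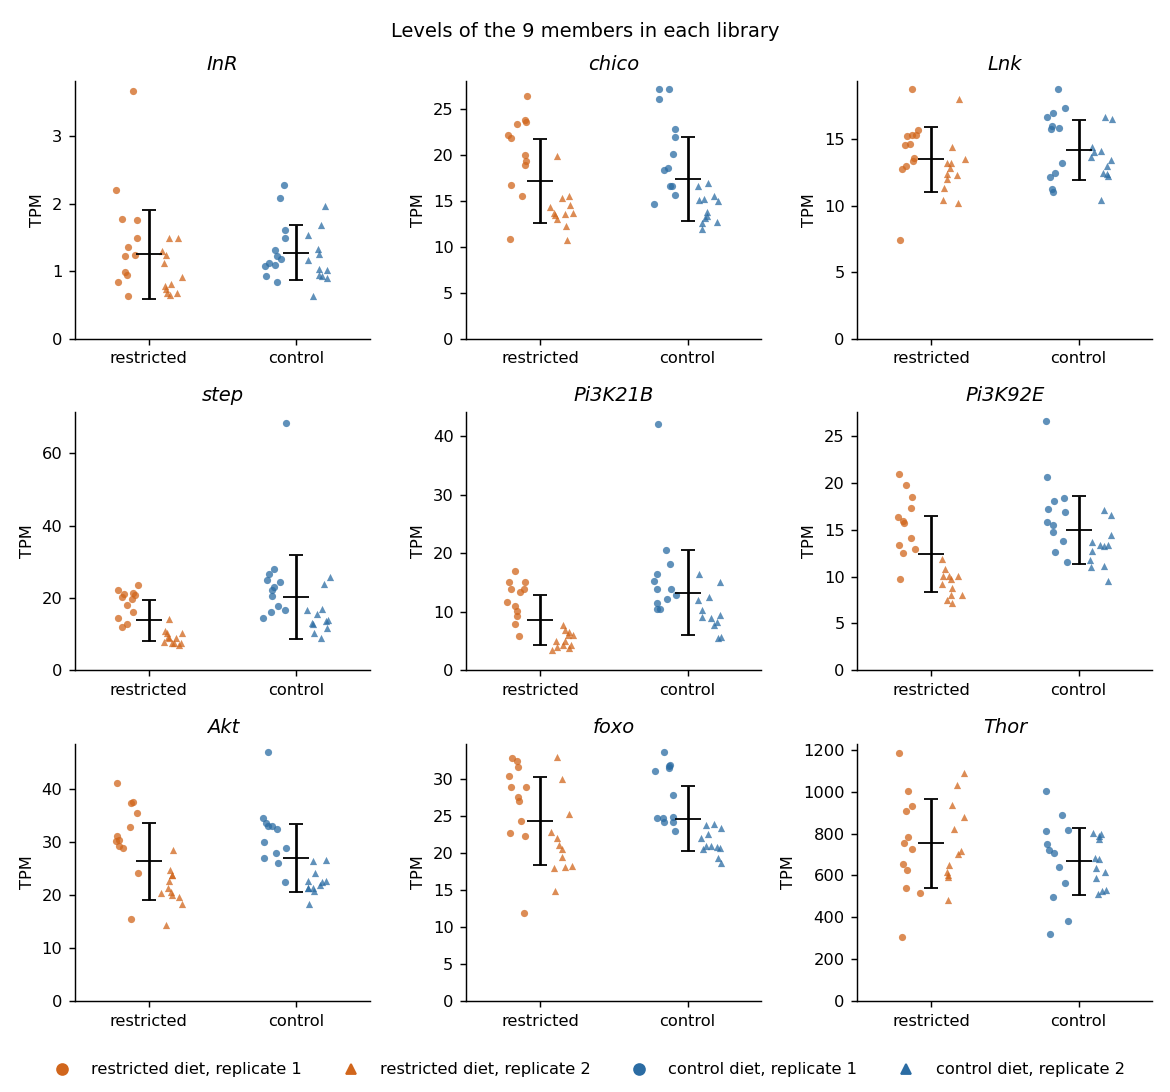
TPM of each member in each library (vertical axes, from 0) on the restricted and the control diet, with circles for replicate 1, triangles for replicate 2 and black bars for the mean ± SD of 24 libraries. The diets overlap for all 9 members, and control ZT 4 replicate 1 stands far above the rest for step (68.3 TPM) and Pi3K21B (42.1 TPM).

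Diet was compared as restricted minus control, with time of day as a factor. Of the 9 members 1 passed the test, the regulatory subunit Pi3K21B, which fell under restriction (quasi-likelihood F test of edgeR, p adjusted by Benjamini-Hochberg over 10070 genes, threshold 0.05, used throughout). Among all genes tested 25.8% passed, 10.4% higher and 15.4% lower, so that the members' count of 1 of 9 does not exceed the background. DESeq2 called Pi3K21B and Pi3K92E, with 30.8% of all genes. With limma on log2(TPM + 1), a scale that moved the all-gene median by -0.11 and gave 309 genes higher and 1599 lower in place of 1048 and 1553, Pi3K21B and step were called among the members, with 18.9% of all genes. The members' count was 1 with DESeq2 size factors (26% of all genes), without a filter (17.1%), with log2(TPM + 1) and no filter (10.5%) and with the newer quasi-likelihood fit (28.9%). It was 2 with log2(TPM + 0.1) (19.8%), without ribosomal RNA and mitochondrial rows (26.5%) and without the time term (28.4%). With the replicate number as a block 4 members passed, Pi3K21B, step, Pi3K92E and Thor, with 38% of all genes. The median change of the 9 members was 0.05 on the log2 scale, and that of all genes tested was 0.01. In bulk tissue fewer cells of a type and less RNA per cell cannot be told apart.

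InR (FBgn0283499), the only receptor among the members, ranged from 0.63 to 3.66 TPM (median 1.17) on the restricted diet and from 0.63 to 2.27 TPM (median 1.17) on the control diet. The ranges overlapped almost wholly, and the single high value was restricted ZT 22 replicate 1. The log2 change was 0.07 ± 0.13 (SE, edgeR adjusted p = 0.703), with a 95% interval from -0.19 to 0.34. Without restricted ZT 22 replicate 1 it was -0.03 (adjusted p = 0.871). It was 0.13 ± 0.21 within replicate 1 (SE, adjusted p = 0.754), -0.09 ± 0.14 within replicate 2 (SE, adjusted p = 0.615) and 0.17 ± 0.16 with the scores (SE, adjusted p = 0.673), so that its sign differed between the replicate numbers.

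The adaptor chico (FBgn0024248), the insulin receptor substrate of the fly, ranged from 10.7 to 26.4 TPM (median 15.5) on the restricted diet and from 12.0 to 27.2 TPM (median 16.1) on the control diet. Its log2 change was 0.08 ± 0.07 (SE, adjusted p = 0.388; 95% interval -0.06 to 0.22), with 0.03 within replicate 1, 0.16 within replicate 2 and 0.11 with the scores (adjusted p = 0.893, 0.0976 and 0.600). Lnk (FBgn0028717), an SH2B family adaptor, ranged from 7.44 to 18.8 TPM (median 13.3) on the restricted diet and from 10.4 to 18.8 TPM (median 13.9) on the control diet. Its lowest restricted value came from ZT 2 replicate 1, the library with 53.8% ribosomal RNA. In CPM its lowest value was 31.0 on the restricted diet and 27.9 on the control diet. Its log2 change was 0.04 ± 0.05 (SE, adjusted p = 0.5003; 95% interval -0.05 to 0.13), with -0.03 within replicate 1, 0.11 within replicate 2 and -0.02 with the scores (adjusted p = 0.856, 0.150 and 0.877). For both adaptors the interval leaves out changes as large as that of Pi3K21B.

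The gene step (FBgn0086779) encodes a cytohesin, an exchange factor for Arf GTPases that acts in insulin signalling upstream of the phosphoinositide kinase. It ranged from 6.96 to 23.6 TPM (median 12.4) on the restricted diet and from 8.90 to 68.3 TPM (median 16.7) on the control diet. The mean was lower on the restricted diet at 11 of 12 times on the log2 CPM scale, but the change of -0.23 ± 0.12 (SE, adjusted p = 0.130) did not pass, although it did with the replicate block (-0.24, adjusted p = 0.00289). It was -0.23 within replicate 1 (adjusted p = 0.243) and -0.23 within replicate 2 (adjusted p = 0.0394).

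Pi3K21B (FBgn0020622) ranged from 3.46 to 17.0 TPM (median 7.31) on the restricted diet and from 5.49 to 42.1 TPM (median 12.1) on the control diet. In CPM it averaged 33.5 ± 12.2 on the restricted diet and 47.3 ± 16.8 on the control diet (SD, n = 24 each). Restricted libraries filled the low end, with the lowest value in restricted ZT 14 replicate 2, and the diets overlapped. The log2 change was -0.49 ± 0.14 (SE, adjusted p = 0.0159), a level 0.714 times that of the control diet, and the mean was lower at 11 of 12 times, the exception being ZT 22. With each library left out in turn the change stayed between -0.54 and -0.41, and without control ZT 4 replicate 1 it was -0.41 (adjusted p = 0.0283).

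The change of Pi3K21B was also taken within each replicate number. Replicate 1 libraries ranged from 5.78 to 17.0 TPM (median 12.4) on the restricted diet and from 10.4 to 42.1 TPM (median 13.8) on the control diet. Their log2 change was -0.33 ± 0.13 (SE, adjusted p = 0.254), in a set of 24 libraries in which 0.0199% of all genes passed. Replicate 2 libraries ranged from 3.46 to 7.72 TPM (median 5.00) on the restricted diet and from 5.49 to 16.4 TPM (median 9.27) on the control diet. Their log2 change was -0.71 ± 0.12 (SE, adjusted p = 0.00152), in a set in which 42.8% of all genes passed. The difference between these changes was -0.38 ± 0.19 (SE, adjusted p = 0.179), so that it did not pass, whereas 9.46% of all genes did. The labels do not say what a replicate number stands for beyond a biological replicate.

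The catalytic subunit Pi3K92E (FBgn0015279) ranged from 7.12 to 20.9 TPM (median 11.4) on the restricted diet and from 9.47 to 26.6 TPM (median 14.1) on the control diet. On the log2 CPM scale its mean was lower on the restricted diet at 12 of 12 times, with a difference of only -0.005 at ZT 12. Within replicate 1 it was lower at 8 of 12 times, and within replicate 2 at 12 of 12. The change was small, -0.17 ± 0.07 (SE, adjusted p = 0.0614), and did not pass without the replicate block (with it -0.18, adjusted p = 0.00662). It was -0.06 ± 0.06 within replicate 1 (SE, adjusted p = 0.614) and -0.31 ± 0.06 within replicate 2 (SE, adjusted p = 0.00209). The difference between the replicate numbers was -0.26 ± 0.09 (SE, adjusted p = 0.0665). Pi3K92E passed when any of 9 libraries was left out, with changes from -0.19 to -0.17. These were restricted replicate 1 at ZT 2, 8, 12, 16, 20, 22 and 24 and control replicate 2 at ZT 16 and 20. The share of all genes that passed in each of these fits was not kept, so these calls have no background beside them.

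The kinase Akt (FBgn0010379) ranged from 14.4 to 41.2 TPM (median 24.5) on the restricted diet and from 18.4 to 47.0 TPM (median 26.4) on the control diet. Its log2 change was 0.05 ± 0.06 (SE, adjusted p = 0.522; 95% interval -0.07 to 0.18), with 0.02 within replicate 1, 0.09 within replicate 2 and 0.12 with the scores (adjusted p = 0.880, 0.290 and 0.479). The transcription factor gene foxo (FBgn0038197) ranged from 11.9 to 32.9 TPM (median 23.6) on the restricted diet and from 18.6 to 33.7 TPM (median 23.8) on the control diet. Its lowest restricted value came from ZT 2 replicate 1, the library with 53.8% ribosomal RNA. In CPM its lowest value was 60.9 on the restricted diet and 57.9 on the control diet. Its log2 change was 0.08 ± 0.06 (SE, adjusted p = 0.391; 95% interval -0.05 to 0.20). It was -0.03 within replicate 1, 0.18 within replicate 2 and 0.03 with the scores (adjusted p = 0.839, 0.0963 and 0.896), and the difference between the replicate numbers was 0.22 ± 0.12 (SE, adjusted p = 0.250). The change of foxo did not pass in any of these fits, which does not show that its level was the same on both diets.

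Thor (FBgn0261560), the foxo target among the members, ranged from 309 to 1186 TPM (median 723) on the restricted diet and from 320 to 1001 TPM (median 680) on the control diet. The diets overlapped over nearly their whole range, and the lowest value of all, restricted ZT 2 replicate 1, came from the library with 53.8% ribosomal RNA. In CPM on library sizes scaled by TMM (trimmed mean of M values), Thor averaged 415 ± 136 on the restricted diet and 343 ± 98.3 on the control diet (SD, n = 24 each). The mean was higher on the restricted diet at 11 of 12 times on the log2 CPM scale, and the exception was ZT 20. The log2 change of 0.27 ± 0.11 (SE, adjusted p = 0.0754) did not pass, and with the replicate block it was 0.26 (adjusted p = 0.047). It was 0.18 ± 0.16 within replicate 1 (SE, adjusted p = 0.532) and 0.37 ± 0.12 within replicate 2 (SE, adjusted p = 0.0276). Thor passed when restricted ZT 20 replicate 1 (0.33, adjusted p = 0.0297), control ZT 6 replicate 2 (0.31, adjusted p = 0.042) or control ZT 20 replicate 2 (0.29, adjusted p = 0.0472) was left out. For these fits too the share of all genes that passed was not kept.

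**Figure D2:**
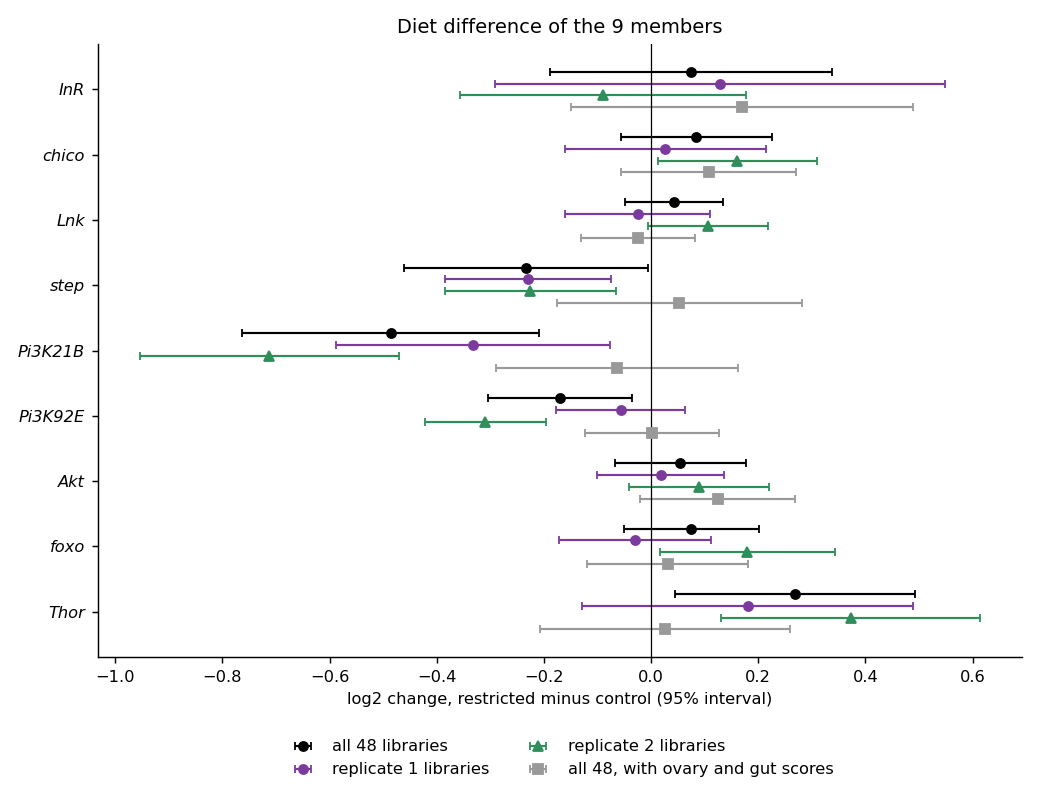
Log2 change of each member, restricted minus control (horizontal axis), with 95% intervals, for all 48 libraries (black), replicate 1 (purple), replicate 2 (green) and all 48 with ovary and gut scores in the fit (grey). Pi3K21B lies at -0.49 over all libraries, at -0.33 and -0.71 within replicates 1 and 2, and at -0.06 with the scores.

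Several members followed the ovary score from library to library. Across the 48 libraries, as a description over points that share depth and dissection, Pearson r of log2 CPM with the score was 0.84 for Pi3K21B, 0.69 for Pi3K92E, 0.61 for step and -0.57 for Thor. Within replicate 1 and replicate 2 it was 0.70 and 0.86 for Pi3K21B, 0.35 and 0.73 for Pi3K92E, 0.43 and 0.54 for step, and -0.34 and -0.71 for Thor. It was between -0.40 and 0.19 over all libraries for InR, chico, Lnk, Akt and foxo. Within replicate 1 and replicate 2 it was -0.35 and -0.58 for chico, -0.39 and -0.47 for foxo, -0.17 and -0.38 for Lnk, -0.10 and -0.30 for Akt, and 0.20 and 0.15 for InR. Control ZT 4 replicate 1, with the highest ovary score of all (7.35), also had the highest levels of step, Pi3K21B and Pi3K92E in CPM and in TPM. When both scores entered the fit, the diet change was -0.06 ± 0.12 for Pi3K21B (SE, adjusted p = 0.849), 0.00 ± 0.06 for Pi3K92E (SE, adjusted p = 0.991), 0.05 ± 0.12 for step (SE, adjusted p = 0.877) and 0.03 ± 0.12 for Thor (SE, adjusted p = 0.947). None of the 9 members passed in that fit, in which 0.109% of all genes did. A fall of Pi3K21B within the fat body and a smaller amount of ovary RNA in restricted libraries cannot be told apart here, since the diets differed in the score.

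**Figure D3:**
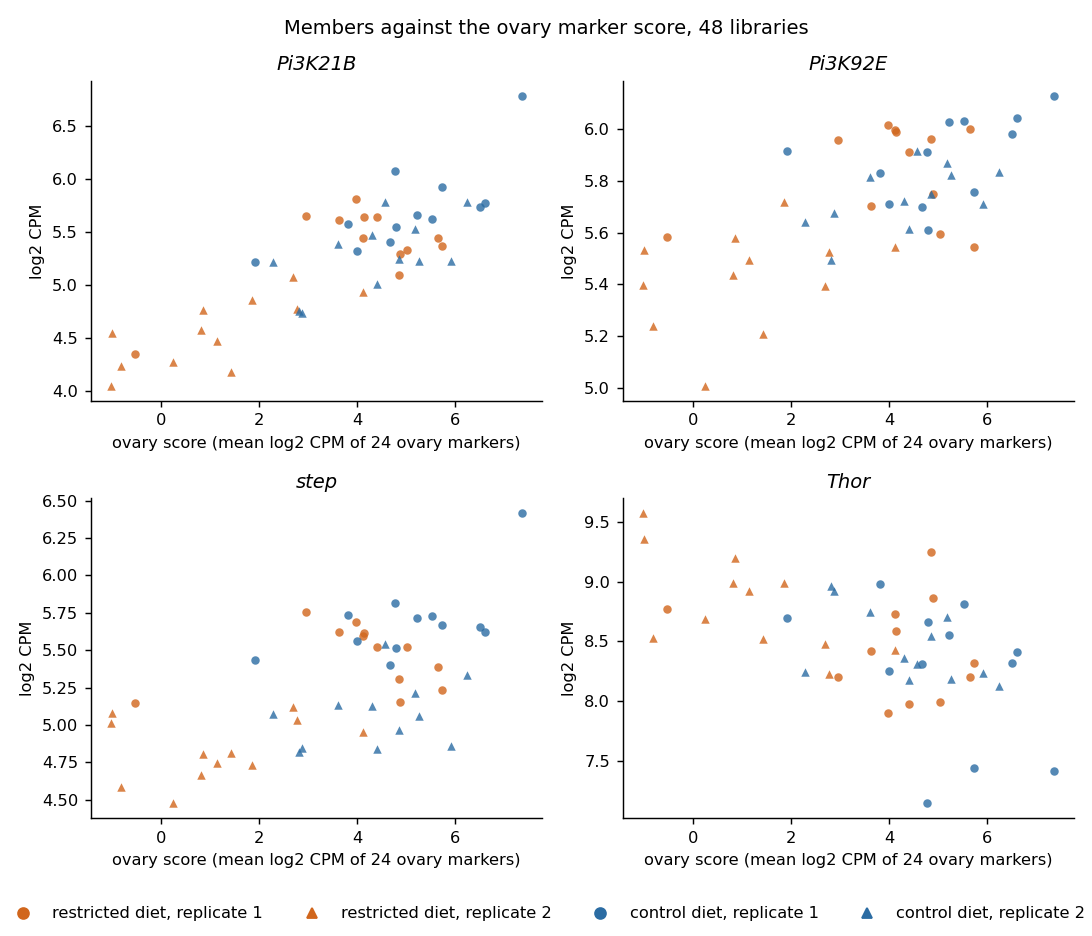
Log2 CPM of Pi3K21B, Pi3K92E, step and Thor (vertical axes) against the ovary score (horizontal axes, mean log2 CPM of 24 ovary markers) in 48 libraries. Restricted replicate 2 libraries hold most of the lowest scores, where Pi3K21B, Pi3K92E and step are low and Thor is high.

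Time of day was examined with a 24 h cosine curve for each diet. None of the 9 members was rhythmic on the restricted diet and none on the control diet (edgeR adjusted p between 0.881 and 0.999 on the restricted diet and between 0.352 and 0.921 on the control diet). Among all genes tested 1.15% were rhythmic on the restricted diet and 1.34% on the control diet, so that a count of 0 of 9 lies near the background. At an unadjusted p under 0.05 there were 0 members on the restricted diet, where 8.91% of all genes passed, and 1, chico, on the control diet, where 11% did. DESeq2 and limma on log2(TPM + 1) also called 0 members rhythmic in either diet, against 1.08% and 0.626% of all genes on the restricted diet and 1.34% and 0.417% on the control diet (DESeq2 and limma).

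The time means of Thor had their highest and lowest points at the same times on both diets, but differed elsewhere. Its mean was highest at ZT 12, with 632 CPM on the restricted diet and 496 CPM on the control diet, and lowest at ZT 16, with 296 CPM on the restricted diet and 222 CPM on the control diet. At ZT 4 it was 507 CPM on the restricted diet and 300 CPM on the control diet, and at ZT 20 it was 303 CPM on the restricted diet and 474 CPM on the control diet. The fitted amplitude, the distance from mean to peak on the log2 scale, was 0.20 ± 0.14 on the restricted diet and 0.10 ± 0.14 on the control diet (SE). The 4 libraries at ZT 12 lay between 485 and 654 CPM, while neighbouring times overlapped.

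Pi3K21B ranged in its time means from 19.7 CPM at ZT 18 to 41.8 CPM at ZT 22 on the restricted diet, and from 34.5 CPM at ZT 18 to 76.0 CPM at ZT 4 on the control diet. Its highest control mean rested on replicate 1 with 110 CPM, against 41.7 CPM in replicate 2 at the same time. The fitted amplitude was 0.17 ± 0.14 on the restricted diet and 0.21 ± 0.14 on the control diet (SE).

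The member nearest to a rhythm was chico on the control diet, with an amplitude of 0.20 ± 0.08 (SE), a fitted peak at ZT 19.6 and an unadjusted p of 0.0255 (edgeR adjusted p = 0.352). On the restricted diet its amplitude was 0.11 ± 0.08 (SE, adjusted p = 0.946). Its mean ranged from 38.6 CPM at ZT 6 to 60.0 CPM at ZT 12 on the restricted diet and from 39.0 CPM at ZT 16 to 64.8 CPM at ZT 20 on the control diet. The InR time means ranged from 6.47 CPM at ZT 18 to 20.0 CPM at ZT 22 on the restricted diet, and at ZT 22 replicate 1 had 31.7 CPM and replicate 2 had 8.33 CPM. On the control diet they ranged from 7.81 CPM at ZT 16 to 18.2 CPM at ZT 24, where both libraries were high (17.1 and 19.2 CPM). The amplitudes of InR were 0.15 ± 0.13 on the restricted diet and 0.21 ± 0.13 on the control diet (SE).

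The means of foxo ranged from 61.6 CPM at ZT 2 to 101 CPM at ZT 12 on the restricted diet and from 68.4 CPM at ZT 2 to 89.6 CPM at ZT 20 on the control diet. Its amplitude was 0.09 ± 0.07 on the restricted diet and 0.07 ± 0.07 on the control diet (SE). The remaining members, Lnk, step, Pi3K92E and Akt, had amplitudes from 0.03 to 0.07 on the restricted diet and from 0.05 to 0.09 on the control diet. Over all members the upper ends of the 95% intervals reached 0.47 on the restricted diet (Thor) and 0.49 on the control diet (Pi3K21B). For Akt they were 0.15 and 0.20. These intervals are approximate, since an amplitude cannot be negative while lower ends were, as for Thor on the restricted diet (-0.065) and Pi3K21B on the control diet (-0.075). The upper ends are therefore no strict bounds of the amplitude, and they are not limits of detection.

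**Figure D4:**
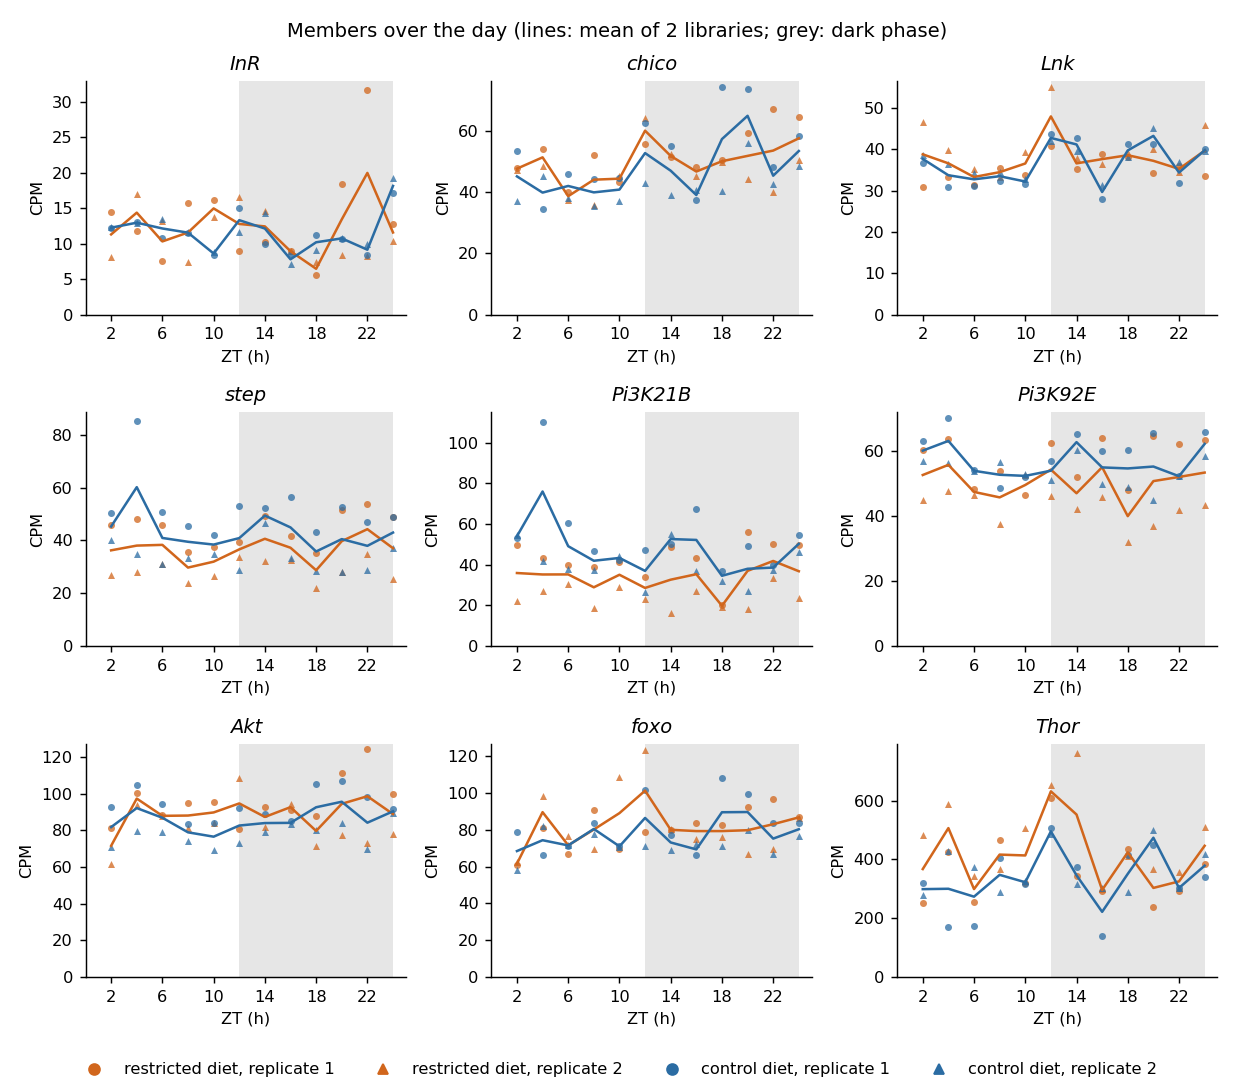
CPM of each member (vertical axes, from 0) against ZT in hours (horizontal axes), with lines for the mean of 2 libraries and points for single libraries, orange for the restricted and blue for the control diet, and grey for the dark phase. Thor is highest at ZT 12 on both diets (632 and 496 CPM), and single libraries such as restricted ZT 22 replicate 1 for InR (31.7 CPM) and control ZT 4 replicate 1 for Pi3K21B (110 CPM) set the highest points.

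The rhythms did not differ detectably between diets for any member. None of 9 passed the test of the difference (adjusted p = 1.00 for each, 0 at an unadjusted p under 0.05), and 0.0199% of all genes did. The diet change was also tested in the light (ZT 2 to 10) and in the dark (ZT 14 to 22). In the light none of 9 members passed, and 0.00993% of all genes did. The light value was -0.61 ± 0.24 for Pi3K21B (SE, adjusted p = 0.134), -0.35 ± 0.20 for step (SE, adjusted p = 0.280), -0.17 ± 0.12 for Pi3K92E (SE, adjusted p = 0.381) and 0.36 ± 0.19 for Thor (SE, adjusted p = 0.220). Without control ZT 4 replicate 2 the light changes of Pi3K21B (-0.71, adjusted p = 0.0418) and Thor (0.52, adjusted p = 0.0449) passed. The share of all genes that passed without that library was not kept. In the dark none of the members and 0% of all genes passed, with values of -0.40 ± 0.24 for Pi3K21B (SE, adjusted p = 0.601) and 0.16 ± 0.19 for Thor (SE, adjusted p = 0.791). The dark minus light difference was 0.21 ± 0.34 for Pi3K21B and -0.20 ± 0.26 for Thor (SE, adjusted p = 1.00 for each), with 0 of 9 members and 0% of all genes past the threshold. At an unadjusted p under 0.05 the counts of members were 1 in the light, 0 in the dark and 0 for the difference, with 25.5%, 8.67% and 1.64% of all genes. Within replicate 1, in a fit with time as a factor, none of the members and 0% of all genes passed in the light, in the dark or for the difference. Within replicate 2 the count was 1 in the light (12.2% of all genes), 0 in the dark (0.377%) and 0 for the difference (0%). The called member was Pi3K21B, with a light change of -0.77 ± 0.20 within replicate 2 (SE, adjusted p = 0.0423) and -0.48 ± 0.21 within replicate 1 (SE, adjusted p = 0.612). Its dark change was -0.72 ± 0.21 within replicate 2 (SE, adjusted p = 0.0882) and -0.21 ± 0.21 within replicate 1 (SE, adjusted p = 0.902). With the replicate block Pi3K21B and step passed in the light, with 17.7% of all genes.

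Many pairs of members varied together from library to library. Of 36 pairs of members 24 were correlated over the 48 libraries (log2 CPM, two-sided permutation test with 100000 resamples, adjusted over the 36 pairs), 19 positively and 5 negatively, and 23 of these 24 had the same sign within both replicate numbers. Libraries share time, diet, replicate number and tissue makeup, and the permutation was not made within any of these, so that these values describe common variation only. The share of pairs that pass among all tested genes was not computed. The count of 24 of 36 can therefore not be read as particular to the members. With each replicate number alone 14 pairs passed within replicate 1 and 14 within replicate 2. By r over all 48 libraries the closest pairs were those among step, Pi3K21B and Pi3K92E. For step and Pi3K21B r (Pearson) was 0.86 and rho (Spearman) was 0.87 (p = 1e-05 for both by permutation, which is the smallest possible, adjusted p = 4.5e-05 and 5.14e-05). It was 0.82 without the 2 libraries farthest from the median, 0.88 within replicate 1, 0.76 within replicate 2 and 0.80 after the ovary and gut scores were taken out. For Pi3K21B and Pi3K92E r was 0.82 and rho 0.81 (permutation p = 1e-05 for each). It was 0.81 without the 2 farthest libraries, 0.54 within replicate 1, 0.85 within replicate 2 and 0.60 after the scores. For step and Pi3K92E r was 0.78, with 0.58 within replicate 1, 0.71 within replicate 2 and 0.62 after the scores. Within replicate 1 these last 2 pairs were less close than chico and foxo (0.84), chico and Lnk (0.72) and Lnk and Thor (0.72). After the scores they were less close than chico and foxo (0.71) and Akt and foxo (0.69).

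Close pairs were also found among chico, foxo and Akt. For chico and foxo r was 0.72 and rho 0.75 (permutation p = 1e-05 for each), with r of 0.67 without the 2 farthest libraries, 0.84 within replicate 1, 0.62 within replicate 2 and 0.71 after the scores. For Akt and foxo r was 0.61 and rho 0.57 (permutation p = 1e-05 and 6e-05), with r of 0.57 without the 2 farthest libraries, 0.55 within replicate 1, 0.72 within replicate 2 and 0.69 after the scores. The kinase and the factor that it phosphorylates varied in the same direction at the transcript level. Akt was correlated with the first 3 genes as well, so that the sets were not separate. For step and Akt r was 0.60 and rho 0.61 (permutation p = 1e-05 for each), with r of 0.55 without the 2 farthest libraries, 0.37 within replicate 1, 0.12 within replicate 2 and 0.67 after the scores. For Pi3K92E and Akt r was 0.46 and rho 0.43 (permutation p = 0.00133 and 0.00241), with r of 0.40 without the 2 farthest libraries, 0.36 within replicate 1, 0.03 within replicate 2 and 0.52 after the scores. For Pi3K21B and Akt r was 0.38 and rho 0.38 (permutation p = 0.00861 and 0.00883), with r of 0.33 without the 2 farthest libraries, 0.26 within replicate 1, -0.12 within replicate 2 and 0.52 after the scores. These 3 pairs did not pass within either replicate number.

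Thor went with Lnk, foxo and chico, and against Pi3K21B. For chico and Thor r was 0.44 and rho 0.47 (permutation p = 0.00153 and 0.00066). For this pair r was 0.44 without the 2 farthest libraries, 0.62 within replicate 1, 0.78 within replicate 2 and 0.43 after the scores. Within each replicate number r was higher for chico and Thor than for foxo and Thor. For foxo and Thor r was 0.51 and rho 0.53 (permutation p = 0.00028 and 0.00016), with r of 0.43 without the 2 farthest libraries, 0.59 within replicate 1, 0.64 within replicate 2 and 0.42 after the scores. For Lnk and Thor r was 0.70 and rho 0.65 (permutation p = 1e-05 for each), with r of 0.62 without the 2 farthest libraries, 0.72 within replicate 1, 0.61 within replicate 2 and 0.63 after the scores. For Pi3K21B and Thor r was -0.65 and rho -0.57 (permutation p = 1e-05 and 4e-05), with r of -0.55 without the 2 farthest libraries, -0.65 within replicate 1, -0.58 within replicate 2 and -0.39 after the scores. On log2(TPM + 1) this pair had r = -0.26 and no longer passed (adjusted p = 0.0779).

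**Figure D5:**
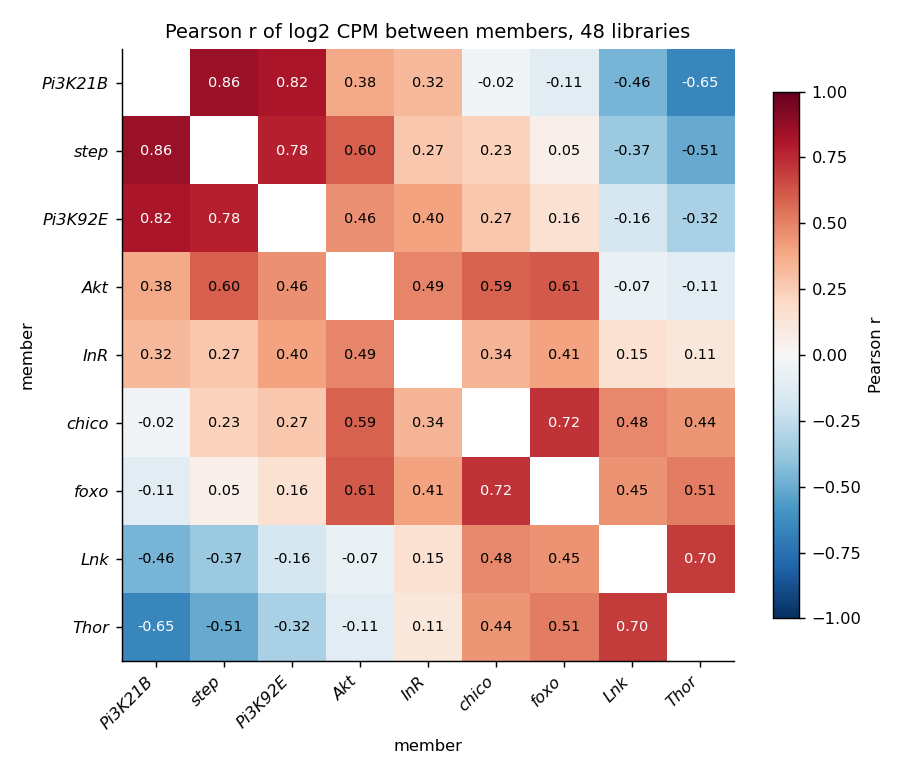
Pearson r of log2 CPM over 48 libraries for each pair of members (rows and columns), from blue (-1) to red (1). Pi3K21B, step and Pi3K92E form a block with r from 0.78 to 0.86. Thor is negative with each of them and positive with Lnk (0.70), foxo (0.51) and chico (0.44).

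Among 6396 other genes with a mean of at least 10 CPM, those whose log2 CPM was most like each of 4 members over the 48 libraries were listed as a description. For Pi3K21B these were Lrch (r = 0.96), G9a (0.96) and Afti (0.96). For Thor they were Odc2 (0.86), CG17646 (0.85) and Lst (0.84). For foxo they were LpR2 (0.77), gce (0.75) and bab2 (0.73), and for InR a gene without a symbol (0.75), drn (0.73) and Crtc (0.73). Within replicate 1 and replicate 2 the first of each list had r of 0.96 and 0.96 for Pi3K21B, 0.83 and 0.87 for Thor, 0.85 and 0.74 for foxo, and 0.80 and 0.69 for InR.

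Other genes around the members were counted from lists by function. The counts are to be read against the 10.4% of all genes that were higher and the 15.4% that were lower. Of 7 tested insulin-like peptides and their binding proteins 1 was higher and 0 lower on the restricted diet. This was conv (convoluted), the fly homologue of the acid-labile subunit that binds insulin-like peptides, at 0.84 ± 0.27 TPM on the restricted diet and 0.71 ± 0.21 TPM on the control diet (SD, n = 24 each), a difference of 0.34 ± 0.12 on the log2 scale (SE, adjusted p = 0.039). The fat body peptide Ilp6 averaged 30.5 ± 13.1 TPM on the restricted diet and 25.6 ± 8.63 TPM on the control diet (SD, n = 24 each) and did not pass (0.26 ± 0.12, SE, adjusted p = 0.106). Ilp6 was rhythmic on the restricted diet, with an amplitude of 0.54 ± 0.12 and a peak at ZT 17.6 (SE, adjusted p = 0.0117), while on the control diet the amplitude was 0.50 ± 0.12 with a peak at ZT 17.7 (SE, adjusted p = 0.0508). Ilp1 was at 0 TPM in all 48 libraries.

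Of 17 other genes of the phosphoinositide kinase and Akt pathway 1 was higher and 2 were lower. The adaptor 14-3-3zeta, of a family that binds phosphorylated proteins including foxo, was higher (0.15 ± 0.05, SE, adjusted p = 0.025). The phosphatase Ptp61F, which acts against tyrosine kinase signalling, was lower (-0.38 ± 0.10, SE, adjusted p = 0.00784), as was the Ras exchange factor Sos (-0.17 ± 0.06, SE, adjusted p = 0.0382). The list had a median change of -0.09, against 0.01 for all genes tested.

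Of 14 genes of the TOR branch, which Akt and nutrients feed into, 2 were higher and 2 lower, with a list median of -0.05. The GTPase Rheb, an activator of TOR, was higher (0.18 ± 0.07, SE, adjusted p = 0.0364), as was REPTOR-BP, the partner of a transcription factor that TOR holds inactive (0.33 ± 0.10, SE, adjusted p = 0.0171). Tsc1, part of the complex that restrains Rheb, was lower (-0.16 ± 0.05, SE, adjusted p = 0.025), as was eIF4E1 (-0.21 ± 0.06, SE, adjusted p = 0.0158), the cap-binding factor that the Thor protein binds.

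Of 9 tested genes reported as foxo targets beside Thor and InR, 0 were higher and 1 was lower, with a list median of 0.03. The lower gene was srl (spargel), a coactivator of mitochondrial genes, with 10.8 ± 6.51 TPM on the restricted diet and 19.0 ± 13.4 TPM on the control diet (SD, n = 24 each) and a difference of -0.65 ± 0.23 on the log2 scale (SE, adjusted p = 0.036). None of the lipases bmm (0.16 ± 0.08, adjusted p = 0.119) and Lip4 (0.20 ± 0.11, adjusted p = 0.159), the activin ligand gene daw (0.14 ± 0.12, adjusted p = 0.358) or the stress gene Sesn (0.03 ± 0.05, adjusted p = 0.742) passed (SE, edgeR). The same holds for tobi (-0.14 ± 0.28, adjusted p = 0.718), which encodes a glucosidase, for Myc (-0.31 ± 0.14, adjusted p = 0.101), for Pdk1 (-0.09 ± 0.09, adjusted p = 0.457) and for Ilp6, and upd2 did not pass the filter on low counts.

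Within replicate 1 none of the genes in these 4 lists passed, and within replicate 2 the counts were 1 higher and 0 lower for the peptides and binding proteins (ImpL2, a secreted binder of insulin-like peptides, 0.70, adjusted p = 0.00524), 1 and 5 for the pathway genes, 2 and 6 for the TOR branch and 0 and 2 for the foxo targets. In that set 20.9% of all genes were higher and 21.9% lower. For ImpL2 the change was -0.05 within replicate 1 and 0.27 over all libraries (edgeR adjusted p = 0.852 and 0.115). Within replicate 1 and replicate 2 the change was 0.33 and 0.37 for conv, 0.11 and 0.21 for 14-3-3zeta, -0.02 and -0.30 for Sos and -0.00044 and 0.38 for Rheb. It was 0.07 and 0.60 for REPTOR-BP, -0.07 and -0.25 for Tsc1 and -0.18 and -0.23 for eIF4E1. For Ptp61F it was -0.24 and -0.52, and for srl -0.33 and -1.15. With the ovary and gut scores in the fit none of them passed. The change of srl was then 0.04 (adjusted p = 0.952), that of Ptp61F -0.14 (adjusted p = 0.533) and that of REPTOR-BP 0.13 (adjusted p = 0.617). Of 11 fat body markers tested 1 was higher and 2 were lower on the restricted diet. Markers of other tissues in the dissected piece moved with diet as well, to be read against 10.4% of all genes higher and 15.4% lower. Of those tested 5 of 8 oenocyte, 3 of 8 epidermis and 6 of 11 muscle markers were higher on the restricted diet. So were 3 of 9 hemocyte and 2 of 9 neuron markers, and none in these lists was lower. Of 27 gut markers 0 were higher and 2 lower, and of 7 Malpighian tubule markers 0 passed. Within replicate 1 none of these markers passed, and with the scores in the fit only 1 did, a neuron marker. The part of these tissues in the members' values was not tested, apart from the ovary and gut scores above.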

How the data were processed

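RNA-seq of 48 libraries was analysed from 2 tables that the authors deposited, estimated counts per gene and TPM per gene. Tools listed without roles in the submitters' processing notes are kallisto 0.44.0 and FastQC. For build, annotation, gene summarisation and strandedness the sources used here give nothing. No coordinates or sequences are therefore printed, and reads of overlapping genes may be mixed. Of these deposited estimated counts, 88.2% were whole within 0.01, and all were rounded. Of 14205 rows 154 had no symbol. No 2 libraries held identical values.

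Genes were filtered with filterByExpr (minimum count 10, 24 diet-by-time groups). The 10070 that remained were scaled with TMM and tested with edgeR 4.0.16 in R 4.3.3 (quasi-likelihood F test, p-values adjusted by Benjamini-Hochberg over these genes, threshold 0.05). The diet effect had time as a factor. Rhythms were tested with a cosine and sine of 24 h per diet, and amplitudes come from least squares on log2 CPM (prior count 2). Light and dark changes are contrasts of group means. Intervals are 95% normal intervals. SDs pool times and replicate numbers. Members, lists, marker scores and tests were chosen with earlier results of these data known. All 9 members are named, together with called members of other lists (at most 6 each), all foxo targets and the 3 nearest genes of 4 members, while ImpL2 and Ilp1 were chosen after their values were seen. Alternatives were a replicate block, each replicate number alone, each library left out, no filter, DESeq2 1.42.0 for the test or only for its size factors, limma 3.58.1 on the deposited TPM as log2(TPM + 1) or log2(TPM + 0.1), ovary and gut scores as covariates, no ribosomal RNA and mitochondrial rows, no time term, a time factor and other time windows. The newer edgeR quasi-likelihood fit, the test between replicate numbers and the light and dark changes within a replicate number (time as a factor and a diet change per phase) were added after seeing the data. The steps were tested on simulated data. The labels call the replicates biological without naming cages or days. The names susi, Tor and nos had no single match, and Ilp5, FASN3 and para were not analysed here.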

Additional observations from a re-analysis of the deposited data

How the results depend on the processing

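The count of members that passed the diet test, with the count of all genes beside it, was 1 with DESeq2 size factors (2617 genes), without a filter (2291), with log2(TPM + 1) and no filter (1413) and with the newer quasi-likelihood fit (2915). It was 2 with DESeq2 (3100), log2(TPM + 1) (1908), log2(TPM + 0.1) (1996), no ribosomal RNA and mitochondrial rows (2664) or no time term (2859), 4 with the replicate block (3824), 0 with the ovary and gut scores (11), and between 0 and 4 when a replicate number or a library was left out (0 without replicate 2, with 2 genes in all, 4 without replicate 1, with 4310, and 1 to 3 without 1 library). The member gained was Pi3K92E with DESeq2 (-0.17, adjusted p = 0.0469), without those rows (-0.17, 0.0485) and without the time term (-0.17, 0.0497), and step on both TPM scales (-0.49, 0.0414; -0.52, 0.0394). The replicate block added step (-0.24, 0.00289), Pi3K92E (-0.18, 0.00662) and Thor (0.26, 0.047). For the fits without 1 library the count of all genes was not kept. The labels name nothing that same-numbered libraries share, so the numbers were not taken as a pairing in the main fit. The calls of step, Pi3K92E and Thor depend on this choice. Deviations of same-numbered libraries tended to correlate, but not above 0.1 in every pair. A rule on every pair cannot show that nothing was shared. The correlation had a median of 0.24 over 276 pairs of groups (-0.28 to 0.71) and was over 0.1 in 194 of them, and in 8 of the 12 pairs of diets at the same time. The numbers also differed in the median share of mitochondrial counts, 3.75% in replicate 1 and 2.58% in replicate 2 on the restricted diet and 5.49% and 2.27% on the control diet.

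In the light the count of members was 0, but 2 with the replicate block (Pi3K21B -0.64 and step -0.35, adjusted p = 0.0198 for each) and 0 to 2 with 1 library left out. For the fits with 1 library left out the count of all genes in the light was not kept. The contrast of group means leaves no residual degrees of freedom within 1 replicate number, so time as a factor was used there, and the count in the light was 1 without replicate 1 and 0 without replicate 2. The counts of rhythmic members and of members with a rhythm difference or a dark minus light difference were 0 under every alternative run, the replicate block included.

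Directions turned for values that had not passed. On log2(TPM + 1), with or without a filter, InR was -0.042, chico -0.019, Lnk -0.074, Akt -0.048 and foxo -0.038, and on log2(TPM + 0.1) InR was -0.094, chico -0.021, Lnk -0.080, Akt -0.051 and foxo -0.041, against a shift of all genes of -0.11 and -0.12. With the scores Lnk was -0.025, step 0.053 and Pi3K92E 0.0020, in the light Pi3K92E was 0.016, and in the dark step was 0.16, Pi3K21B 0.0047 and Thor -0.093. With a replicate number or a library left out InR ranged from -0.089 to 0.128, Lnk from -0.025 to 0.106 and foxo from -0.030 to 0.179. The dark minus light value of Pi3K92E was 0.0096 without a filter, 0.15 on log2(TPM + 1) with or without a filter, 0.16 on log2(TPM + 0.1), 0.025 without replicate 2, and -0.108 to 0.040 with 1 library left out. The cause of these turns was not tested.

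Of 36 pairs of members 24 were correlated, 21 without the 2 farthest libraries, 31 on log2(TPM + 1), 24 after the scores, and 14 within replicate 1 and 14 within replicate 2. No share over pairs of all tested genes was computed beside these counts. The signs of Lnk with step (0.47) and Lnk with Pi3K21B (0.42) turned on log2(TPM + 1), that of Pi3K21B with Akt (-0.12) within replicate 2 and that of Pi3K92E with Thor (0.12) after the scores. Depth limits InR most, with as few as 54 estimated counts in a library.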
